A study of Mus musculus with 12 samples.

Results

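Infarcted mouse hearts that had also been through hypoxia were compared here with hearts that had been infarcted only, over all genes of 1 expression table. The members are the 3 libraries labelled MI+CIH and the 3 labelled MI, chosen by those labels, and they are 6 of the 12 libraries of the series. All 12 came from hearts of C57BL/6J mice, as the labels give it, with 3 further libraries labelled CIH and 3 labelled sham. MI and CIH are read here in their usual senses, myocardial infarction and chronic intermittent hypoxia, and the series title places them in a study of remodelling after infarction with disordered breathing in sleep. The labels used here name no allele, drug, sex, age, hypoxia regime, time after surgery or region of the heart, and do not say whether a library is 1 animal. Because each library is RNA of whole tissue, fewer cells of a type and less RNA per cell cannot be told apart in any value below.

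After an infarction, lost heart muscle is replaced by scar: macrophages clear dead cells, fibroblasts lay down collagen, and the surviving muscle cells lose part of their oxidative metabolism. Repeated hypoxia acts on cells partly through HIF, a transcription factor held down by oxygen-dependent prolyl hydroxylases, whose targets include genes of glucose use, iron uptake and vessel growth. The airway epithelium makes proteins that heart muscle does not: secretoglobins and mucins from secretory cells, and the beating axonemes of ciliated cells under the master regulator Foxj1.

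Library totals recovered from the table were 26.06 to 33.42 M reads, so that 1 read on a transcript of 1 kb is worth at most 0.03837 FPKM (read number divided by exon length and by library total, the unit of the table). The heart label held: the summed FPKM of 32 cardiomyocyte and sarcomere genes was 27913, 36935 and 18244 in MI+CIH, against 36215, 36193 and 35215 in MI. The MI+CIH libraries were less alike, with correlations of 0.932 to 0.941 between pairs, against 0.963 to 0.97 among the MI libraries. Of the other 6 libraries, sham 2 stood apart from its group through airway genes, as described with them.

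In MI+CIH against MI, 51 of 15503 genes passed at an adjusted p under 0.05 in limma, which is 0.329% of those tested. Of these, 37 rose (0.239%) and 14 fell (0.0903%). The genes that rose included airway genes (Reg3g, Muc5b, Bpifb1, Foxj1), cartilage genes (Col2a1, Acan), macrophage genes (Marco, Gpnmb, Cd5l), genes of the actin skeleton (Tmsb10, Cald1, Cttn), the clock repressor Nr1d1 and the glycolytic regulator Pfkfb3. Those that fell included Ppargc1a, which drives mitochondrial gene expression, the transferrin receptor Tfrc, the amino acid transporter Slc38a2 and the Z-disc protein Myot. All 51 separated the 3 MI+CIH from the 3 MI libraries without overlap. Over all genes tested, 2271 (14.6%) had all 3 MI+CIH libraries above all 3 MI libraries and 1425 (9.19%) had them below, and the median log2 difference was 0.05.

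The calls sat at the threshold: their adjusted p ran from 0.0474 to 0.0495, while 2934 genes (18.9%) had an unadjusted p under 0.05. With median-of-ratios scaling 77 genes passed, 39 of them up and 38 down, an even split beside the 37 and 14 given above. The count was 85 without MI+CIH 1, 1029 without MI+CIH 2, 0 without MI+CIH 3, 0 without any 1 of the 3 MI libraries, 101 without CIH 1, 0 without CIH 2, CIH 3 or sham 1, 45 without sham 2 and 8 without sham 3. In each of those limma fits all 51 genes kept their direction and an unadjusted p under 0.05. The 51 were picked by p from the same libraries and their groups did not overlap, so this was near assured and is no independent check. Where the count was 0, between 1936 and 2943 genes had an unadjusted p under 0.05.

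**Figure D1:**
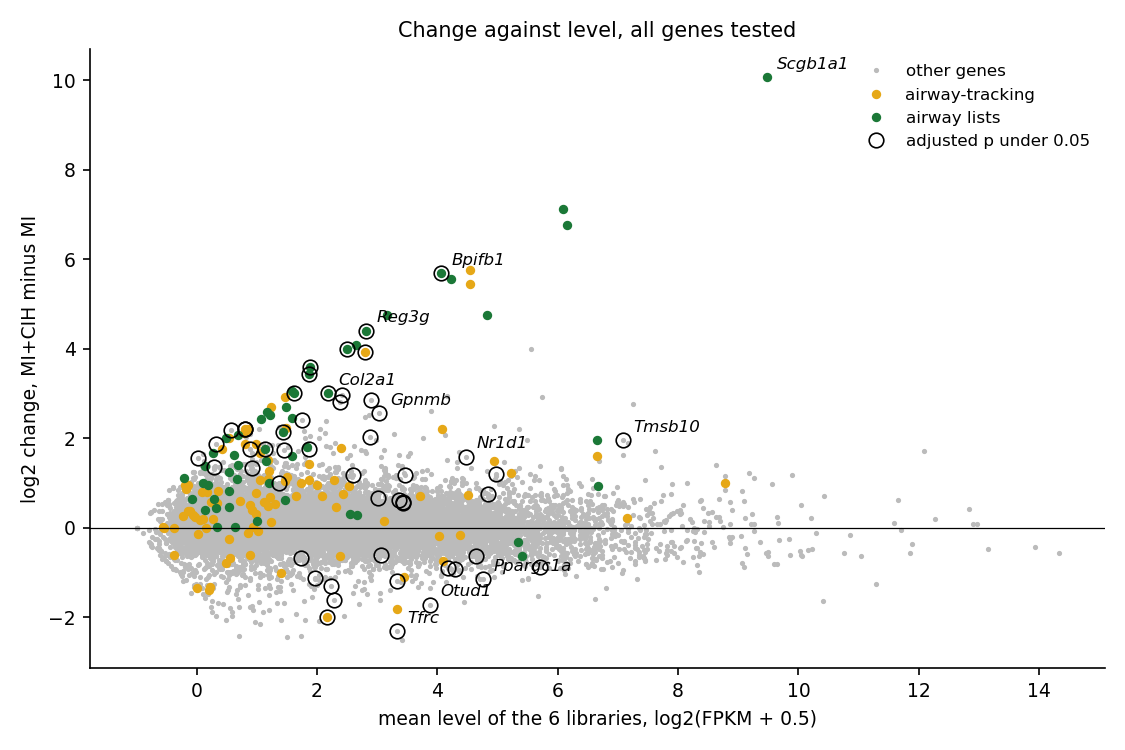
Log2 change (MI+CIH minus MI, vertical) of the 15503 genes tested, against their mean level over the 6 libraries as log2(FPKM + 0.5). Green points are genes of the airway lists, yellow points genes that track them in the CIH and sham libraries, grey points all others, and black rings the 51 genes that passed. Of the 64 genes up by at least 2 on the log2 scale, 23 are green, led by Scgb1a1 at 10.06, 11 are yellow and 30 are grey.

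Airway genes were set apart first. The lists used (airway secretory, motile cilia, lung alveolar, epithelial, tracheal cartilage) held 102 genes of the table, of which 53 entered the test. Of those 53, only 22 would have entered it without the MI+CIH libraries, so the others had to differ and their count is given as a description only. A further 91 tested genes are called airway-tracking, because over the 6 CIH and sham libraries their levels had a Pearson r of at least 0.9 with the airway score and spanned at least 1 log2 unit. Among those 6 libraries only sham 2 had a high score (0.78, against at most -0.129), so the class largely marks genes high in that 1 library. All 91 had a CIH minus sham difference below 0 (all genes: 59.2%). Without sham 2 it was below 0 for 46 of them (all genes: 58.0%). The remaining 15359 tested genes are called heart-sample genes, a class bounded by the same library. The 51 calls divided into 9 genes of the airway lists, 3 airway-tracking genes and 39 heart-sample genes. The 9 all rose and include the cartilage genes Col2a1 and Acan, whose order of libraries differed, as described below. Of the airway-tracking genes Cxcl17 and Clic6 rose and Ighv7-1 fell, and of the heart-sample genes 26 rose and 13 fell. Of the 9 airway calls 8 (all but Rsph1), and both airway-tracking genes that rose, entered the test only through MI+CIH, so their direction was fixed by the filter.

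The airway score, the mean log2(FPKM + 0.5) of 57 secretory and ciliary genes, was 0.793, 2.277 and 1.967 in MI+CIH and -0.216, -0.376 and -0.367 in MI. It was -0.457, -0.129 and -0.357 in CIH and -0.352, 0.78 and -0.334 in sham. All 3 MI+CIH libraries were above every other library, by a wide margin in libraries 2 and 3, and sham 2 was nearly level with MI+CIH 1.

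Secretory genes of the airway carried the highest values. Scgb1a1, the main secretoglobin of club cells, measured 290, 2977 and 990 FPKM in MI+CIH, against 1.71, 0 and 0.14 FPKM in MI, with 485 FPKM in sham 2. The MI+CIH and MI values are far apart, but their spread left the gene just outside the threshold, at a log2 difference of 10.06 (SE 1.9, limma adjusted p = 0.0532). Bpifb1, a secreted protein of upper airway glands, measured 11.6, 48.9 and 36.5 FPKM in MI+CIH, against 0.0629, 0 and 0.083 FPKM in MI, a log2 rise of 5.68 (SE 0.89, limma adjusted p = 0.0495). The antimicrobial lectin Reg3g measured 3.16, 15.5 and 20.3 FPKM in MI+CIH, against 0, 0 and 0.0158 FPKM in MI (log2 rise 4.40). The gel-forming mucin Muc5b measured 2.3, 9.19 and 7.7 FPKM in MI+CIH and at most 0.00223 FPKM in MI (log2 rise 3.60). In these genes library 1 was the lowest of the MI+CIH group, and the groups did not overlap. Wfdc2, a secreted protein of airway epithelium, rose by 3.44 and was at 0 in all MI libraries. In all, 4 of the 13 secretory genes tested rose and none fell, and only 5 of the 13 would have been tested without MI+CIH. Bpifa1 (13.1, 221 and 171 FPKM in MI+CIH, against 0.273, 0 and 0 FPKM in MI) and Scgb3a1 (35.4, 149 and 238 FPKM in MI+CIH, against 0.652, 0.688 and 0.223 FPKM in MI) did not pass, at limma adjusted p = 0.0656 and 0.0503.

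Ciliary genes followed the same libraries. Foxj1 measured 1.62, 8.82 and 4.8 FPKM in MI+CIH, against 0.0371, 0.0855 and 0.127 FPKM in MI (log2 rise 3.02, SE 0.54, limma adjusted p = 0.0495). Ccdc153, which encodes a dynein regulatory complex protein, measured 2.13, 15.5 and 13.1 FPKM in MI+CIH, against 0.0638, 0 and 0 FPKM in MI (log2 rise 4.0), and Rsph1, a radial spoke protein, rose by 1.76. Those 3 were the calls among 19 ciliary genes tested, of which only 8 would have been tested without MI+CIH; Foxj1 and Ccdc153 were not among those 8. Of all 40 ciliary genes in the table, 30 had their highest MI+CIH value in library 2 and 10 in library 3. The most abundant members did not go with them: Tppp3, which other cells also express, measured 18.9, 71.6 and 22.8 FPKM in MI+CIH, against 65.5, 32.5 and 27.8 FPKM in MI, and the groups overlapped.

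The promoter of Ccdc153 is shown for the motif that RFX factors, partners of Foxj1, bind; the window is 250 bases before and 50 after the start in RefSeq (GRCm38.p6, chr9:44240427-44240726, plus strand), and capitals mark the searched letters GTTGCC, 152 bases before the start.
Ccdc153: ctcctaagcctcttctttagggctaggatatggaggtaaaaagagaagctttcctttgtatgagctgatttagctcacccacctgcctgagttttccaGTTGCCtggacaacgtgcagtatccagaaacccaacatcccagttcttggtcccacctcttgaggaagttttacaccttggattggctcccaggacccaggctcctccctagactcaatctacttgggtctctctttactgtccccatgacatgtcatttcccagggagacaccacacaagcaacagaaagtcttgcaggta
On either strand, 12.5% of 32851 such windows hold these letters, so the match is a description of the sequence only.

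Epithelial and alveolar genes were uneven between the MI+CIH libraries. Krt15, a basal cell keratin, measured 1.67, 19.4 and 13.7 FPKM in MI+CIH and 0 in all 3 MI libraries (limma adjusted p = 0.0582). Sftpc, the surfactant protein of type II alveolar cells, measured 0.0477, 216 and 0.311 FPKM in MI+CIH, against 0 in all 3 MI libraries and 14.5 FPKM in sham 2, and it was too low elsewhere to enter the test. MI+CIH library 2 was the one high in such genes: there 14 of the 15 alveolar genes had their highest MI+CIH value. Ager, of type I cells, measured 0.627, 10.3 and 2.27 FPKM in MI+CIH, against 0.455, 0.646 and 0.592 FPKM in MI. No alveolar or epithelial gene passed in limma, among 5 and 7 tested, of which 5 and 6 had an unadjusted p under 0.05. In each list 2 of those tested would have been without MI+CIH.

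Cartilage genes had another order of libraries. Col2a1, the collagen of hyaline cartilage, measured 7.33, 1.96 and 14 FPKM in MI+CIH, against 0.0216, 0.53 and 0.494 FPKM in MI (log2 rise 3.01, SE 0.52, limma adjusted p = 0.0495). Acan, the cartilage proteoglycan aggrecan, measured 3.89, 1.99 and 5.98 FPKM in MI+CIH, against 0.23, 0.366 and 0.817 FPKM in MI (log2 rise 2.14). Both were lowest in library 2, the library highest in secretory, ciliary and alveolar genes. With the airway score in the model their log2 differences were 3.41 and 1.81. Both entered the test only through MI+CIH, and without that group 5 of the 9 cartilage genes tested would have been. Comp, which both cartilage and scar fibroblasts make, measured 175, 56.8 and 160 FPKM in MI+CIH, against 26.4, 72.8 and 116 FPKM in MI, and the groups overlapped.

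**Figure D2:**
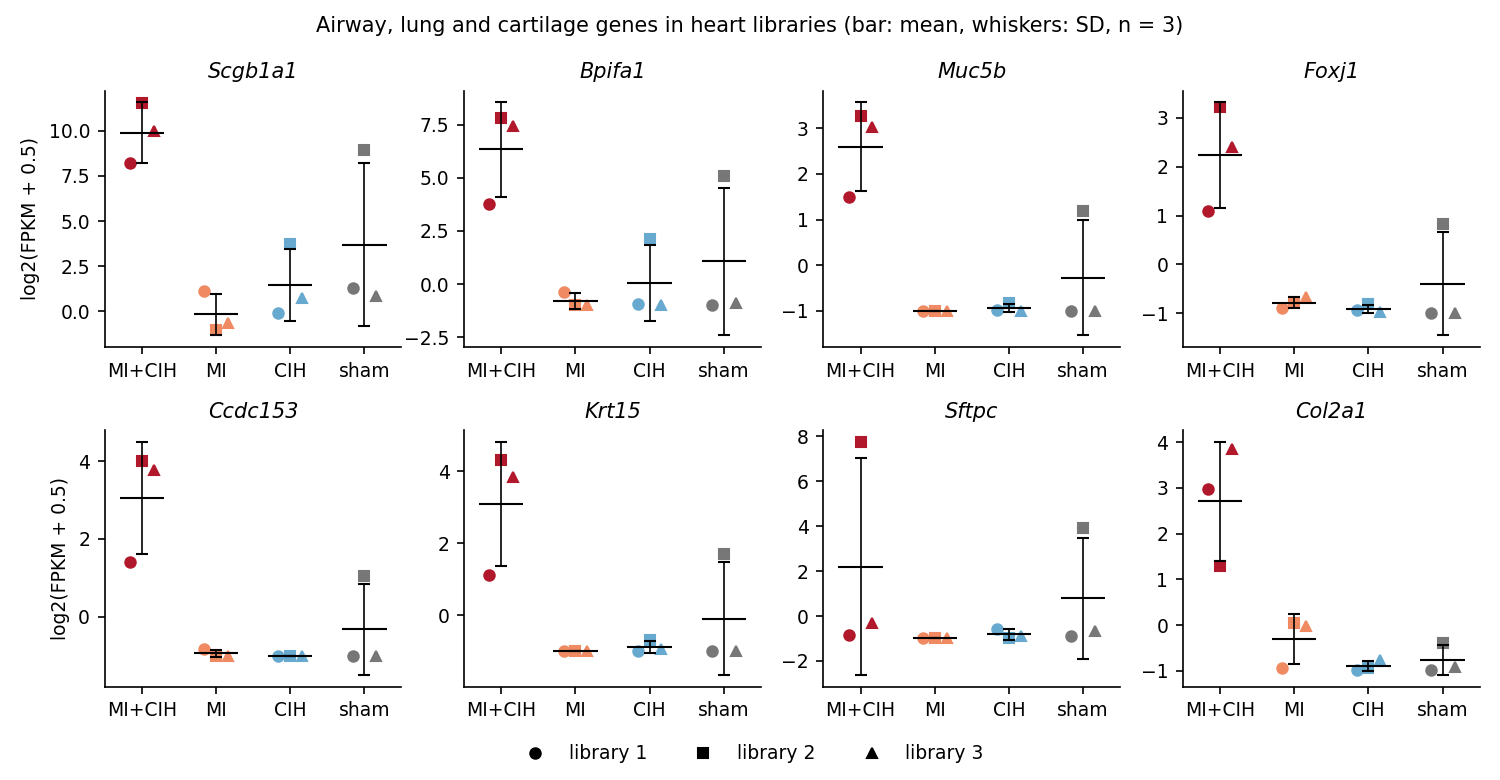
Level in every library as log2(FPKM + 0.5) of 8 airway, lung and cartilage genes, with MI+CIH, MI, CIH and sham from left to right; symbols are libraries 1 to 3, the line is the mean and whiskers are the SD. Secretory and ciliary genes stand high in all 3 MI+CIH libraries and in sham 2, Sftpc in MI+CIH 2 and sham 2 (216 and 14.5 FPKM), and Col2a1 in the 3 MI+CIH libraries with its highest value, 14 FPKM, in library 3.

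Of the airway-tracking calls, Cxcl17 and Clic6 were high in the same libraries as the airway genes, whereas Ighv7-1 measured 0.846, 1.07 and 1.97 FPKM in MI+CIH, against 7.16, 4.22 and 8.54 FPKM in MI. Cxcl17, a chemokine of mucosal tissue, measured 4.39, 12.9 and 20.7 FPKM in MI+CIH, against 0.299, 0.147 and 0.263 FPKM in MI, with 1.72 FPKM in sham 2 and 0 in the 5 other CIH and sham libraries. With the airway score in the model its log2 difference was 1.02 instead of 3.93. Some heart-sample calls were close to that class. Klf5 (r = 0.87), Marco (0.85), 1700007K13Rik (0.85) and Oit1 (0.99, but a span of 0.65) lay just outside it, and Clic6 (0.93) just inside.

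The log2 differences with the airway score in the model are given here by class. All MI+CIH libraries had a higher score than every other library, so the score and the group difference cannot be fully parted. The airway calls other than Col2a1 and Acan are members of the score, so a drop in them was built in. With the score in the limma model the median log2 difference of the 9 airway calls was 0.62 instead of 3.44. For the 26 heart-sample genes that rose it was 1.19 instead of 1.66, and 19 of the 26 kept an unadjusted p under 0.05. For the 13 that fell it was -1.14 instead of -1.13, and 12 of the 13 kept one. No gene passed at an adjusted p under 0.05 in that limma fit, where 1393 genes had an unadjusted p under 0.05.

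**Figure D3:**
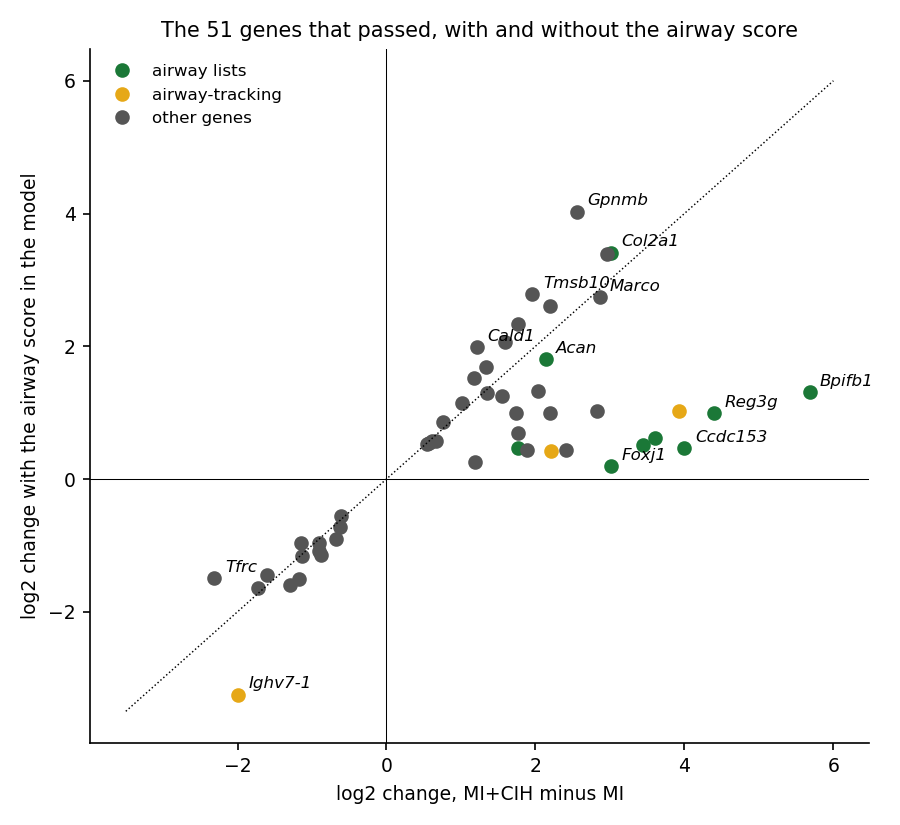
Log2 change of the 51 genes that passed in MI+CIH against MI (horizontal), against the same change with the airway score in the model (vertical); the dotted line marks equal values. Airway genes other than Col2a1 and Acan are members of the score and lie between 0.19 (Foxj1) and 1.31 (Bpifb1) on the vertical axis. The heart-sample genes that fell lie nearer the line.

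Of the heart-sample genes that rose, 4 that encode proteins acting with actin or at the membrane cortex are described first. They were put together from the calls, and no list of such genes was tested. Basp1, a membrane protein tied to the actin cortex (ENSMUSG00000045763, chromosome 15, 25363277 to 25413764 on GRCm38), measured 6.15, 3.97 and 5.43 FPKM in MI+CIH, against 1.13, 1.07 and 1.25 FPKM in MI. It had the smallest p of all genes, with a log2 rise of 1.77 (SE 0.21, limma adjusted p = 0.0474). It averaged 0.584 ± 0.0775 FPKM in CIH and 1.19 ± 0.485 FPKM in sham (SD, n = 3 each), so the MI+CIH libraries were the highest of the 4 groups. Tmsb10, a thymosin that binds actin monomers (ENSMUSG00000079523, chromosome 6, 72957347 to 72958748), measured 277, 135 and 235 FPKM in MI+CIH, against 76.4, 46.2 and 41.5 FPKM in MI (log2 rise 1.96, SE 0.31, limma adjusted p = 0.049). It was the most abundant of the genes that rose and lay above 102 FPKM, the highest sham value, in all 3 MI+CIH libraries. Cald1, caldesmon, which holds back actomyosin in smooth muscle and fibroblasts, measured 63.4, 30.7 and 37.6 FPKM in MI+CIH, against 18.5, 16.9 and 17.9 FPKM in MI (log2 rise 1.21). Cttn, cortactin, which binds branched actin, measured 36.6, 30.7 and 39.9 FPKM in MI+CIH, against 21.4, 20.6 and 20.3 FPKM in MI (log2 rise 0.76). These 4 kept an unadjusted p under 0.05 with the airway score in the limma model, where the log2 differences were 2.34, 2.78, 1.99 and 0.86. Vill, of the actin-binding villin family, is not among the 4 and did not keep one. It rose by 1.76, had a log2 difference of 0.69 with the score, and entered the test only through MI+CIH.

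Some other genes that rose are known from macrophages and other leukocytes, and except for Gpnmb they belong to none of the lists but come from the calls. Gpnmb, a transmembrane glycoprotein of lipid-laden phagocytes (ENSMUSG00000029816, chromosome 6, 49036546 to 49070929), measured 26.2, 4.85 and 10.5 FPKM in MI+CIH, against 1.32, 1.18 and 2 FPKM in MI (log2 rise 2.56, SE 0.44, limma adjusted p = 0.0495). Marco, a scavenger receptor known for its level in alveolar macrophages, measured 15.6, 5.9 and 16.1 FPKM in MI+CIH, against 1.65, 0.408 and 1.82 FPKM in MI (log2 rise 2.86). Both had their lowest MI+CIH value in library 2, and neither overlapped between the groups. Cd5l, a secreted macrophage protein, rose by 1.74, the integrin Itgax (CD11c) of dendritic cells and macrophages by 1.34, and Spn (CD43) of leukocytes by 1.01. Pglyrp1, a peptidoglycan receptor stored in neutrophil granules, measured 3.34, 8.68 and 14.1 FPKM in MI+CIH, against 1.08, 0.265 and 0.726 FPKM in MI (log2 rise 2.82). With the airway score in the limma model its log2 difference was 1.03 and its unadjusted p above 0.05, whereas Marco, at 2.74, kept one under 0.05.

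Of the 30 macrophage and monocyte genes tested, 1 (Gpnmb) rose and none fell, 27 had a log2 difference above 0 (all genes: 57.0%), and the median was 0.55. The groups did not overlap for 14 of them, all higher in MI+CIH, against 14.6% of all genes. The median was 0.34 without MI+CIH 3 and 0.62 with the airway score in the model. MI+CIH 3 held the highest MI+CIH value of 26 of the 32 in the table, and the summed FPKM of the list was 2652, 1858 and 3500 in MI+CIH, against 1692, 1146 and 1409 in MI. Spp1, osteopontin, named after its values were seen, measured 144, 7.53 and 120 FPKM in MI+CIH, against 1.69, 2.45 and 4.9 FPKM in MI, without passing (limma adjusted p = 0.0656). Neutrophil genes leaned further on library 3: their summed FPKM was 26.5, 90.2 and 361 in MI+CIH, against 7.36, 6.29 and 5.58 in MI. None of the 9 tested passed in limma, 5 had an unadjusted p under 0.05 (all genes: 18.9%), and 6 would have been tested without MI+CIH. The median log2 difference of the 9 was 1.96, with 0.87 without MI+CIH 3 and 1.03 with the airway score in the model. Ltf, lactoferrin, was the exception in its libraries, with 3.35, 79 and 54.2 FPKM in MI+CIH, against 0.0753, 0.0976 and 0.087 FPKM in MI; it is also a product of airway glands, and sham 2 held 7.36 FPKM.

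Other heart-sample genes that rose had varied known roles. Factors of ribosome assembly, nascent chains and tRNA were among them: the helicase Ddx10, the 60S assembly factor Mak16, the ribosome-bound chaperone Dnajc2 and Thumpd1, which works in tRNA acetylation. Their rises were small and tight, from 0.55 to 0.66 on the log2 scale. Dnajc2 measured 9.35, 9.27 and 9.44 FPKM in MI+CIH, against 6.12, 5.85 and 5.32 FPKM in MI. Upf3b, of nonsense-mediated mRNA decay (ENSMUSG00000036572, chromosome X, 37091678 to 37110322), measured 9.44, 6.48 and 7.71 FPKM in MI+CIH, against 3.43, 3.1 and 2.96 FPKM in MI (log2 rise 1.18). Anxa8, a calcium-dependent membrane-binding annexin, measured 8.49, 12.5 and 13 FPKM in MI+CIH, against 2.97, 2.15 and 2.04 FPKM in MI (log2 rise 2.03). Klf5, a zinc finger factor of epithelia and of activated fibroblasts, rose by 2.41 but had a log2 difference of 0.44 with the airway score in the model. Of the 26, 6 (Oit1, 1700007K13Rik, Vill, Igkv6-15, Cd5l and Ibsp) entered the test only through MI+CIH; of these Ibsp, bone sialoprotein, reached 1.45 FPKM at most. The antibody segments Igkv6-15 and Ighv7-1 have near-identical copies that counting can mix, and Gm37646 and Gm44237 are only predicted genes in the annotation, so these values are uncertain.

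Nr1d1 (REV-ERB alpha), the nuclear receptor that represses the clock activator Arntl, measured 36.3, 34.8 and 27.8 FPKM in MI+CIH, against 11.4, 12 and 8.65 FPKM in MI (ENSMUSG00000020889, chromosome 11, 98767932 to 98775333). The log2 rise was 1.59 (SE 0.28, limma adjusted p = 0.0495), and the groups did not overlap. CIH (28.3, 17.8 and 31.1 FPKM) and sham (21.9, 25 and 47 FPKM) were near the MI+CIH level, so the MI libraries were the low ones among the 12. The other clock genes did not pass, and those named next were picked after their values were seen. Dbp measured 12.5, 17.8 and 12.7 FPKM in MI+CIH, against 4.32, 4.55 and 6.37 FPKM in MI, and Nr1d2, the paralog of Nr1d1, 13.9, 16.4 and 16.4 FPKM in MI+CIH, against 7.57, 7.93 and 7.6 FPKM in MI. Arntl, Cry1 and Nfil3 went the other way: Arntl measured 5.21, 5.17 and 5.54 FPKM in MI+CIH, against 8.95, 10.3 and 8.37 FPKM in MI. Of the 19 clock genes 1 rose and none fell, 4 had all MI+CIH libraries above MI (all genes: 14.6%) and 4 below (all genes: 9.19%), and the median was -0.06, with 0.04, 0.13 and -0.21 without MI+CIH 1, 2 and 3. The labels give no hour of collection, so its part in these values was not tested.

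Pfkfb3 makes fructose 2,6-bisphosphate, a potent activator of glycolysis, and is a known HIF target. It measured 11.6, 15.4 and 17.3 FPKM in MI+CIH, against 6.78, 5.49 and 6.13 FPKM in MI, a log2 rise of 1.19 (SE 0.21, limma adjusted p = 0.0495; ENSMUSG00000026773, chromosome 2, 11471433 to 11554077). It was at 2.81, 3 and 3.57 FPKM in CIH and 4.34, 8.24 and 4.98 FPKM in sham, so MI+CIH was above the 9 other libraries, and sham 2 was the highest of those. Its level followed the airway score over CIH and sham (r = 0.81), and with the score in the model its log2 difference was 0.26, without an unadjusted p under 0.05 in limma. Tfrc, the transferrin receptor that takes up iron and another HIF target, went the opposite way: 3.5, 2.33 and 2.8 FPKM in MI+CIH, against 12.5, 17.6 and 18.8 FPKM in MI (ENSMUSG00000022797, chromosome 16, 32608920 to 32632794). It had the largest fall of the 51, by 2.31 on the log2 scale (SE 0.36, limma adjusted p = 0.0495). CIH (2.99, 2.9 and 2.99 FPKM) and sham 1 and 2 (3 and 3.69 FPKM) were at the MI+CIH level, whereas sham 3 held 11.1 FPKM. With the airway score in the model the log2 difference of Tfrc was -1.49, with an unadjusted p just above 0.05 in limma.

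The start regions of these opposite-moving HIF targets are shown from RefSeq (GRCm38.p6, 250 bases before to 50 after the start), since HIF binds at the core letters ACGTG; capitals mark matches on either strand. The window of the upstream start of Pfkfb3 is chr2:11553880-11554179 (minus strand, match 60 bases before the start), that of its downstream start is chr2:11502041-11502340 (minus strand, an E-box CACGTG in which matches on both strands overlap), and the one of the upstream start of Tfrc is chr16:32608646-32608945 (plus strand, match 2 bases before the start). The window of a downstream start of Tfrc, chr16:32608872-32609171, holds the same match 228 bases before that start and is not printed.
Pfkfb3 upstream start: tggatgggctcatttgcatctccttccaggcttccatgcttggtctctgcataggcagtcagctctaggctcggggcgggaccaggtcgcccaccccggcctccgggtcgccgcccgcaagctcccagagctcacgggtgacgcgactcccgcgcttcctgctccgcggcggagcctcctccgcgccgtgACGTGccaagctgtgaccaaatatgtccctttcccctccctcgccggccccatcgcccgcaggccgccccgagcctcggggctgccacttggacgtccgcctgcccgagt
Pfkfb3 downstream start: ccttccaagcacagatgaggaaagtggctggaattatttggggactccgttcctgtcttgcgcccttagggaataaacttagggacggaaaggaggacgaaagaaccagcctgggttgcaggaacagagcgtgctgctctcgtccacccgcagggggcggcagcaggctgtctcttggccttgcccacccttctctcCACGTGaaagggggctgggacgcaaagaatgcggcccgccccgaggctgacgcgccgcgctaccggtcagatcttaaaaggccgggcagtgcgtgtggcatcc
Tfrc upstream start: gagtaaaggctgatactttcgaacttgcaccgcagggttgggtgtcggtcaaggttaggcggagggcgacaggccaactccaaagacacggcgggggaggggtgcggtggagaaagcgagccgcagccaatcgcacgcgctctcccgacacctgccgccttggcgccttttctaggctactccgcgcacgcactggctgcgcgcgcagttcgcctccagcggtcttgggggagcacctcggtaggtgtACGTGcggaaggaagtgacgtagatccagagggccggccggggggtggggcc
The letters are in 19.6% of 32851 windows, and both of these genes, 1 that rose and 1 that fell, hold them.

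Of 30 HIF targets tested, these 2 passed, 1 in each direction, and the median was 0.02, or -0.19 without MI+CIH 3, -0.05 with median-of-ratios scaling and -0.33 with the airway score in the model. In limma 14 of the 30 had an unadjusted p under 0.05 (all genes: 18.9%), 4 of them above 0 and 10 below. All MI+CIH libraries were above MI for 3 of the 30 (all genes: 14.6%) and below for 8 (all genes: 9.19%). Vegfa, the main endothelial growth factor, measured 62.9, 51.7 and 46.5 FPKM in MI+CIH, against 71.2, 103 and 82.1 FPKM in MI (limma adjusted p = 0.0727). The prolyl hydroxylase Egln3, picked after its values were seen, measured 14.1, 10.3 and 8.66 FPKM in MI+CIH, against 20.2, 26.1 and 19.1 FPKM in MI (limma adjusted p = 0.0581). Hmox1, heme oxygenase, also picked so, measured 19.1, 16.2 and 202 FPKM in MI+CIH, against 11, 9.55 and 8.99 FPKM in MI, with library 3 far above the rest. Among 25 genes of glycolysis and glucose uptake Pfkfb3 was the only call, while 21 had a log2 difference below 0 (all genes: 57.0% above 0). Their median was -0.29, or -0.17 without MI+CIH 1 and -0.45 with the airway score in the model. The insulin-responsive glucose carrier Slc2a4 measured 15.3, 27.7 and 16.3 FPKM in MI+CIH, against 34.2, 41.8 and 37.2 FPKM in MI (limma adjusted p = 0.0656).

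Among the genes that fell, Ppargc1a (PGC-1 alpha), the coactivator of mitochondrial and fatty acid oxidation genes, measured 16.6, 17.6 and 14.4 FPKM in MI+CIH, against 33.1, 45.7 and 31.9 FPKM in MI (ENSMUSG00000029167, chromosome 5, 51454250 to 51567726). It fell by 1.15 on the log2 scale (SE 0.18, limma adjusted p = 0.049). CIH averaged 19.2 ± 3.4 FPKM and sham 20.7 ± 3.11 FPKM (SD, n = 3 each), so MI was the high group of the 4. Slc38a2 (SNAT2), which imports neutral amino acids, measured 36, 37.7 and 34.7 FPKM in MI+CIH, against 59, 72.2 and 70.1 FPKM in MI, and fell by 0.88. Otud1, a deubiquitinase, measured 7.44, 4.97 and 6.5 FPKM in MI+CIH, against 17.7, 20.7 and 27.4 FPKM in MI, and fell by 1.72. Like Ppargc1a, both were highest in MI among the 4 groups, with no MI library inside the range of another group.

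A further set that fell was lower in MI+CIH than in all 3 other groups. Tmem246, an enzyme of GPI anchor modification (ENSMUSG00000039611, chromosome 4, 49584506 to 49597876), measured 1.58, 2.59 and 2.62 FPKM in MI+CIH, against 5.94, 6.6 and 6.01 FPKM in MI, and fell by 1.30 (SE 0.17, limma adjusted p = 0.049). Its CIH values were 6.14, 7.97 and 6.96 FPKM and its sham values 5.76, 4.78 and 6.36 FPKM. Gmpr, GMP reductase of purine metabolism, measured 11.6, 15.8 and 12 FPKM in MI+CIH, against 23.7, 26 and 25.1 FPKM in MI, and fell by 0.91. Fem1a, a substrate receptor of a ubiquitin ligase, fell by 0.62, Hhatl, a protein of muscle membranes, by 1.18, and the autophagy protease Atg4d by 0.68. Cited4, a coactivator known from exercise-induced heart growth, measured 1.57, 2.91 and 1.37 FPKM in MI+CIH, against 5.67, 7.19 and 7.39 FPKM in MI, and fell by 1.61. Gpr4, a proton-sensing receptor of endothelium, fell by 1.13, and the endothelial adhesion molecule Icam2 by 0.61. Myot, myotilin of the Z-disc, did not part from all other groups. It measured 11.1, 15.2 and 10.3 FPKM in MI+CIH, against 21.4, 24.6 and 22.7 FPKM in MI, and fell by 0.90, but its CIH values (16.8, 13.3 and 11.8 FPKM) overlapped those of MI+CIH.

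**Figure D4:**
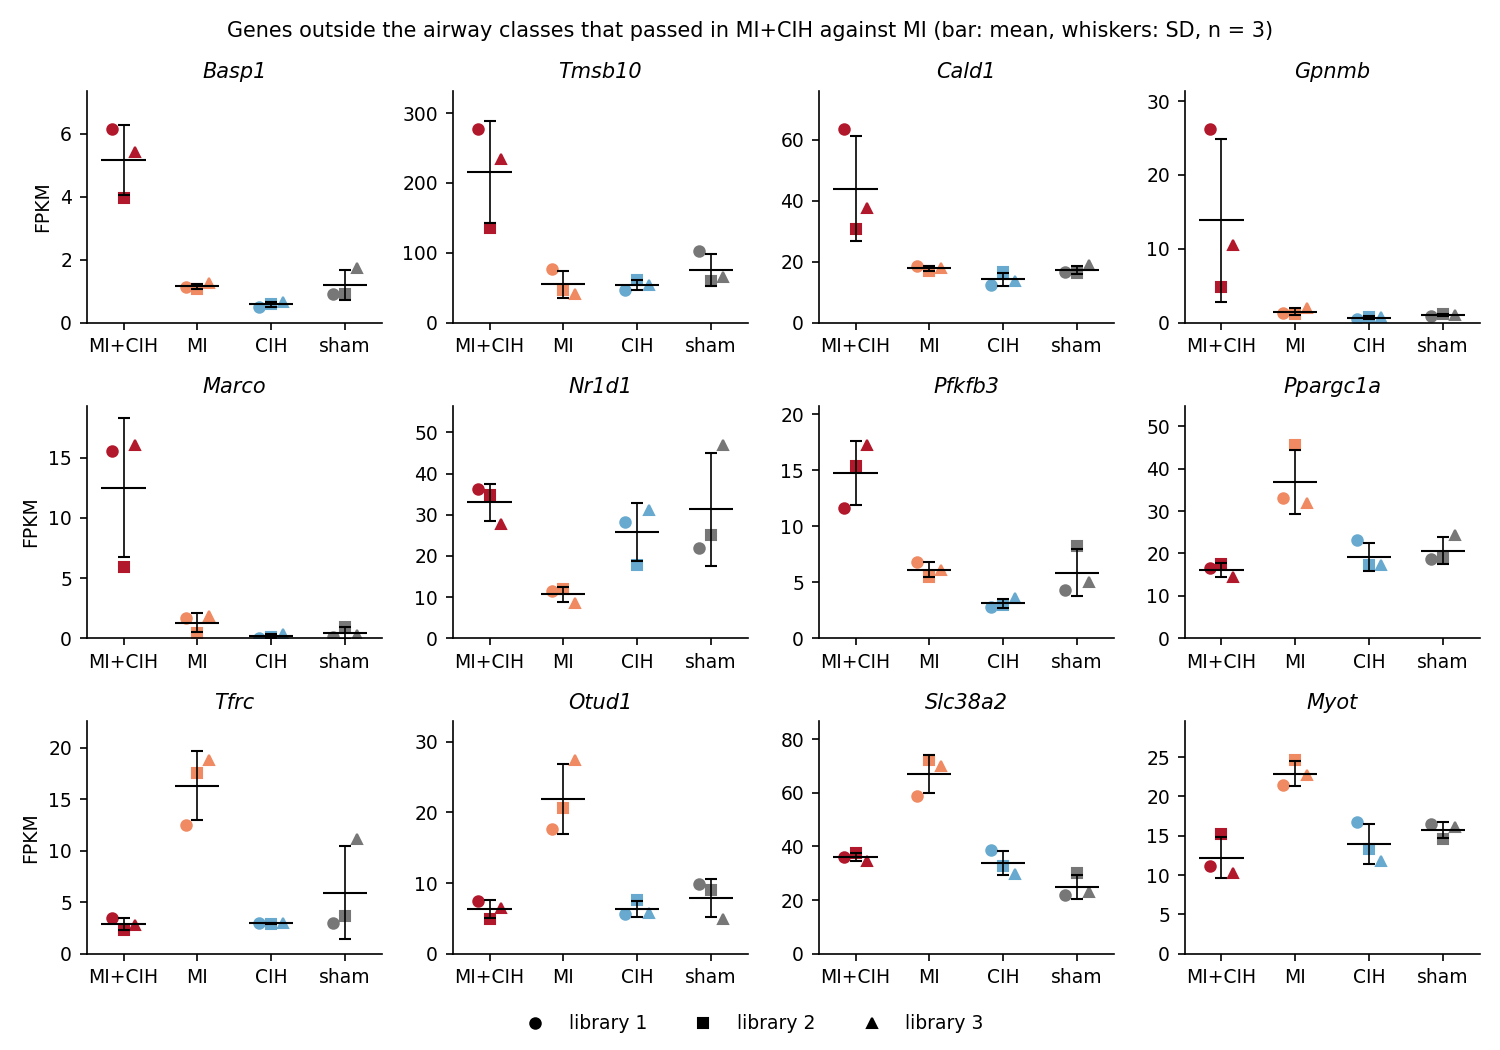
FPKM in every library of 12 heart-sample genes that passed in MI+CIH against MI, with MI+CIH, MI, CIH and sham from left to right; symbols are libraries 1 to 3, the line is the mean and whiskers are the SD. Basp1, Tmsb10, Cald1, Gpnmb, Marco and Pfkfb3 are highest in MI+CIH, whereas for Nr1d1, Ppargc1a, Otud1 and Slc38a2 the MI libraries are the ones apart from the other 3 groups.

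Genes of oxidative metabolism and contraction lay below 0 as lists, with few calls. Over all genes tested, 18.9% had an unadjusted p under 0.05 in limma and 57.0% had a log2 difference above 0. None of 41 nuclear genes of oxidative phosphorylation passed in limma, but 27 had an unadjusted p under 0.05, 40 had a log2 difference below 0, 20 had all MI+CIH libraries below all MI libraries (all genes: 9.19%), and the median was -0.60. The median was -0.47, -0.85 and -0.49 without MI+CIH 1, 2 and 3, and -1.02 with the airway score in the model. Their summed FPKM was 4638, 7825 and 4681 in MI+CIH, against 7944, 8192 and 8449 in MI, so libraries 1 and 3 were low and library 2 near MI. Cox8b, a subunit of cytochrome oxidase, measured 42.5, 93.8 and 59 FPKM in MI+CIH, against 148, 168 and 157 FPKM in MI (limma adjusted p = 0.0581). Of 30 genes of fatty acid oxidation and ketone use 1 fell (Ppargc1a), 23 had a log2 difference below 0 and the median was -0.48, with -0.32, -0.69 and -0.30 without MI+CIH 1, 2 and 3 and -0.77 with the airway score in the model. Of 24 ion channel genes none passed in limma, 12 had an unadjusted p under 0.05, 20 were below 0, and the median was -0.60, or -0.38 without MI+CIH 3. All MI+CIH libraries were below MI for 9 of the 24 (all genes: 9.19%) and above for 0 (all genes: 14.6%). For the 32 cardiomyocyte and sarcomere genes the median was -0.46, and -0.21 without MI+CIH 3, and no gene passed in limma, where 13 had an unadjusted p under 0.05. Nkx2-5, a transcription factor of heart muscle, came nearest, with 14.8, 18 and 15.3 FPKM in MI+CIH, against 29.2, 28.5 and 27.4 FPKM in MI (limma adjusted p = 0.0503). Over the 12 libraries the oxidative list stood in another order in the hearts without infarction, where its summed FPKM was 10326, 12405 and 12911 in CIH, against 9486, 8119 and 8604 in sham.

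Matrix genes lay above 0, beside 57.0% of all genes tested above 0 and 18.9% with an unadjusted p under 0.05 in limma. Of 42 collagen and matrix genes none passed in limma, 19 had an unadjusted p under 0.05, 40 had a log2 difference above 0, 10 had all MI+CIH libraries above MI (all genes: 14.6%), and the median was 0.52, or 1.11 with the airway score in the model. That median was 0.42, 0.75 and 0.48 without MI+CIH 1, 2 and 3, and 0.40, 0.50 and 0.73 without MI 1, 2 and 3. The summed FPKM of the 42 genes was 4143, 2713 and 4488 in MI+CIH, against 1924, 2365 and 2966 in MI, with library 2 inside the MI range. Tnc, tenascin of the wound border, measured 5.63, 4.18 and 7.39 FPKM in MI+CIH, against 1.4, 2.61 and 3.05 FPKM in MI (limma adjusted p = 0.0682). The protease Mmp12 of macrophages measured 2.01, 1.01 and 0.893 FPKM in MI+CIH, against 0.0987, 0.217 and 0.203 FPKM in MI (limma adjusted p = 0.0503). Of 26 cell cycle genes none passed in limma, 11 had an unadjusted p under 0.05, 22 were above 0 and the median was 0.42, or 0.69 without MI+CIH 2 and 0.18 without MI+CIH 3. Only 21 of the 26 would have been tested without MI+CIH, so these counts lean on the filter. The highest MI+CIH value was in library 3 for 29 of the 30 in the table. Ccna2, cyclin A2, measured 2.33, 1.8 and 3.93 FPKM in MI+CIH, against 0.636, 0.797 and 1.19 FPKM in MI (limma adjusted p = 0.0581). Infarct size and sampled region are not given in the labels, and their part in these lists was not tested.

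The remaining 24 heart lists held no call in limma, and 102 of their 462 tested genes had an unadjusted p under 0.05 (all genes: 18.9%). Above 0 in the median were NADPH oxidase (0.74, 7 genes), atrial (0.64, 10), cytokine and chemokine (0.55, 21), complement (0.52, 16), activated fibroblast (0.44, 22), MHC class II (0.40, 9), matrix protease and inhibitor (0.35, 22), glucocorticoid-induced (0.34, 23), BCL2 family and death (0.29, 23), NRF2 target and antioxidant (0.21, 27), p53 target and cell cycle inhibitor (0.17, 25), smooth muscle and pericyte (0.16, 16), renin and adrenergic (0.12, 16) and ATF4 and CHOP response (0.11, 22). Within 0.1 of 0 were cytosolic ribosomal protein (0.08, 33), secreted heart factor (0.04, 24), endoplasmic reticulum folding (-0.02, 22) and interferon-induced genes (-0.06, 38). Below 0 were the stress and fetal program (-0.17, 19), endothelial (-0.17, 24), mitochondrially encoded (-0.20, 12), heat shock and chaperone (-0.30, 21), calcium cycling (-0.32, 14) and immediate early genes (-0.38, 24). Without MI+CIH 3 the medians came to 0.44 for NADPH oxidase, 0.11 for cytokine and chemokine, 0.23 for complement, 0.13 for matrix protease and inhibitor, 0.17 for glucocorticoid-induced, 0.12 for BCL2 family and death, 0.04 for NRF2 target and antioxidant, 0.06 for p53 target and cell cycle inhibitor and -0.06 for ATF4 and CHOP response genes. Without MI 1 they came to 1.34 for atrial and 0.10 for activated fibroblast genes, and without MI 3 to 0.03 for immediate early and -0.06 for renin and adrenergic genes. With the airway score in the model, where the median of all genes was -0.10 instead of 0.05, the sign turned for atrial (-0.39), glucocorticoid-induced (-0.26), NRF2 target and antioxidant (-0.20), p53 target and cell cycle inhibitor (-0.12), renin and adrenergic (-0.43), ATF4 and CHOP response (-0.14), cytosolic ribosomal protein (-0.34), secreted heart factor (-0.04), interferon-induced (0.24) and stress and fetal program genes (0.18). In that model cytokine and chemokine genes came to 0.16, complement to 0.29, activated fibroblast to 0.70 and immediate early genes to -0.85. In the calcium list Atp2a2, the SERCA pump, measured 596, 756 and 432 FPKM in MI+CIH, against 1037, 1036 and 963 FPKM in MI (limma adjusted p = 0.0843). In the smooth muscle list Lmod1, leiomodin, measured 21.3, 11 and 12.8 FPKM in MI+CIH, against 5.02, 5.23 and 3.1 FPKM in MI (limma adjusted p = 0.0503).

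Markers of other tissues were read beside these lists. Among 7 lists of other tissues no gene passed in limma, and 19 of the 85 tested had an unadjusted p under 0.05 (all genes: 18.9%). The medians were 0.84 for B cell, 0.84 for epicardial and mesothelial, 0.56 for nerve, 0.49 for skeletal muscle, 0.39 for fat cell, 0.20 for thymus and T cell and -0.03 for red cell genes. They came to 1.8 for skeletal muscle without MI 2, to 1.10 for nerve without MI 1 and to -0.26 for thymus and T cell genes without MI+CIH 2. Only 10 of the 16 skeletal muscle genes tested would have been tested without MI+CIH, so their medians lean on the filter. With the airway score in the model the medians were 0.02 for B cell, -0.32 for epicardial and mesothelial, -0.62 for nerve, -0.52 for skeletal muscle, -1.31 for fat cell, -0.17 for thymus and T cell and -0.74 for red cell genes, so that 5 of the 7 turned from above to below 0. MI+CIH 2 held the highest MI+CIH value of all 12 mesothelial genes, of 17 of 21 fat cell genes, of 14 of 16 thymus and T cell genes and of 9 of 10 red cell genes. Skeletal muscle genes summed to 81.8, 155 and 120 FPKM in MI+CIH, against 71.7, 290 and 52.6 FPKM in MI, with the highest value in MI 2. What these tissues contribute to the heart-sample genes was not tested.

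**Figure D5:**
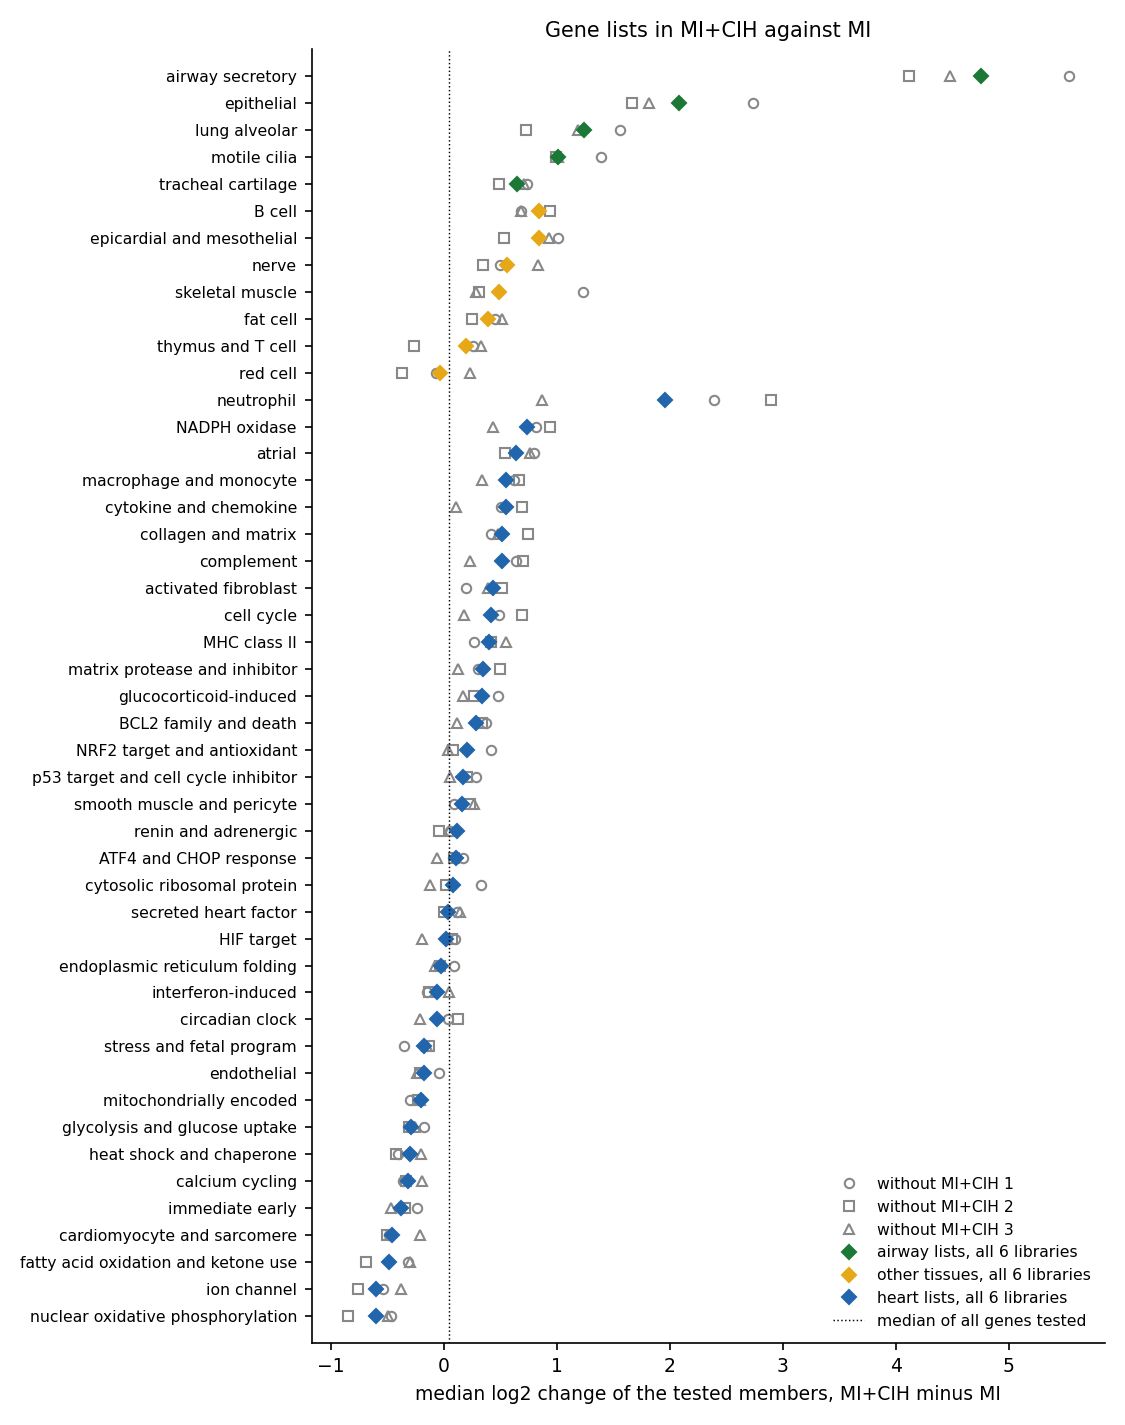
Median log2 change (MI+CIH minus MI) of the tested members of all 47 gene lists, as filled diamonds (green for airway lists, yellow for other tissues, blue for heart lists), with the same median without MI+CIH 1, 2 or 3 as open symbols. The dotted line is the median of all genes tested, 0.05; the airway secretory list stands at 4.75, the neutrophil list moves most among the heart lists, and nuclear oxidative phosphorylation and ion channel genes are lowest, both at -0.60.

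Whether the hypoxia difference was the same in infarcted hearts and in hearts without infarction was tested as an interaction in the same limma fit, the MI+CIH to MI difference less the CIH to sham difference. It was positive and past the threshold for 11 genes (0.071%) and negative for 1 (0.00645%), 12 of 15503 in all (0.0774%), against a median of 0.13 over all genes. Of the 12, 4 also passed in MI+CIH against MI: Basp1, Upf3b and Pfkfb3, which rose, and Tmem246, which fell. Basp1 had an interaction of 2.37 (SE 0.30, limma adjusted p = 0.0396), made of 1.77 in infarcted hearts and -0.61 in hearts without infarction. Pfkfb3 had 1.96 (SE 0.30, limma adjusted p = 0.0495), made of 1.19 and -0.77. Of the 37 genes that rose in MI+CIH against MI, 36 had a CIH minus sham difference below 0 (all genes: 59.2%), and of the 14 that fell 8 had one below 0 as well. Without sham 2, the sham library with airway genes, 25 of the 37 had one below 0 (all genes: 58.0%): 1 of the 9 airway genes, none of the 2 airway-tracking genes and 24 of the 26 heart-sample genes. With median-of-ratios scaling 155 genes passed, 61 positive and 94 negative, beside the 11 and 1 given above. The count was 94 without MI+CIH 1, 999 without MI+CIH 2, 110 without CIH 1, 15 without sham 3 and 0 without MI+CIH 3, any 1 MI library, CIH 2, CIH 3, sham 1 or sham 2. In each of those limma fits the 12 genes kept their direction and an unadjusted p under 0.05. They were picked by p from the same libraries, so this is no independent check. Where the count was 0, between 2519 and 3089 genes had an unadjusted p under 0.05.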

How the data were processed

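RNA of 12 heart libraries was measured by sequencing. The labels name a small RNA kit, while the values cover long mRNAs. The authors deposited 1 table of FPKM for 26781 genes. Tools listed by the submitters' processing notes, without roles, are featureCounts 1.5.0-p3, HISAT and DESeq 1.8.3, and the build is mm10. From the steps between low values and GENCODE M21 exon lengths, 88.8% of genes came out as whole reads (within 0.1 reads), which gave totals of 26.06 to 33.42 M reads; these bound counting error only. Strand is not stated, so overlapping genes cannot be parted.

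Genes reaching 0.5 FPKM in 3 or more libraries were kept, a pseudocount of 0.5 FPKM was added, and log2 values went into limma 3.58.1 (trend, robust, statmod 1.5.0, R 4.3.3) with 1 mean per group over 12 libraries. The fit was tested on simulated data, and tests were two-sided with Benjamini-Hochberg adjustment at 0.05. Folds on this scale understate low genes. Where nothing says that libraries are separate animals, p-values measure the spread between libraries only.

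The members and lists were chosen with earlier results of these data known. Genes named are up to 10 per direction by p (log2 change of at least 1, mean of at least 1 FPKM, groups not overlapping), all other calls up to 60, list members by p, and the 5 highest of each airway list. Same-numbered libraries deviated together with r of -0.175 to 0.128, so the numbers were not taken as pairs. Alternatives were filters, pseudocounts, scaling, a replicate block, array weights, the airway score, the 6 libraries alone and leaving out libraries.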

Additional observations from a re-analysis of the deposited data

Results flagged for a closer look

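Genes whose CIH difference in infarcted hearts differed from that in hearts without infarction, by the interaction in limma, are given here with their log2 interaction. Positive values were found for Mir5104 at 3.47, Basp1 at 2.37, Pfkfb3 at 1.96, S100a11 at 1.89, Upf3b at 1.83, Csf1 at 1.46, Ddit3 at 1.45, Nabp2 at 1.33, Bnc2 at 1.31, Ankrd12 at 1.27 and Maco1 at 0.97, and a negative value for Tmem246 at -1.59.

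Ddit3, the stress factor CHOP, measured 8.58, 10 and 7.94 FPKM in MI+CIH, against 7.39, 6.96 and 8.25 FPKM in MI, and 4.69, 5.66 and 6.14 FPKM in CIH, against 13.6, 13.8 and 13.1 FPKM in sham. The MI+CIH and MI values overlapped, so its interaction came mainly from the difference of -1.23 between CIH and sham. Csf1, the growth factor of macrophages, measured 21.4, 17.8 and 21.4 FPKM in MI+CIH, against 15.4, 13.8 and 11.8 FPKM in MI, and 13.5, 12.7 and 10.1 FPKM in CIH, against 19.7, 23.8 and 25.6 FPKM in sham. In Csf1 all 3 MI+CIH libraries were above MI and all 3 CIH libraries below sham. S100a11, a calcium-binding protein, measured 206, 202 and 302 FPKM in MI+CIH, against 124, 95.7 and 113 FPKM in MI, and 47.4, 68.6 and 54.3 FPKM in CIH, against 98.1, 89.7 and 112 FPKM in sham, again without overlap within either pair. Bnc2, a zinc finger factor of fibroblasts, measured 3.13, 2.67 and 3.23 FPKM in MI+CIH, against 1.74, 1.76 and 1.9 FPKM in MI, and 0.674, 0.732 and 0.564 FPKM in CIH, against 1.27, 1.43 and 1.44 FPKM in sham. Mir5104 is a hairpin that may share reads with a gene it lies in, and its value is uncertain.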

How the results depend on the processing

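Over the 22 other settings, the single genes that passed had 1114 values, of which 377 were still past the threshold, 737 were not and 0 were reversed. Most settings could not reverse a direction. The groups did not overlap for any of these genes, so another pseudocount or leaving out an MI+CIH or MI library could not do so. Other filters, the replicate block, the 6 libraries alone and leaving out a CIH or sham library leave the difference itself unchanged. The count of 51 in MI+CIH against MI became 82 without a filter on low values, 12 with a mean of at least 1 FPKM, 0 with a pseudocount of 0.1, 77 with median-of-ratios scaling, 196 with limma array weights, 0 with the airway score and 0 with only the 6 libraries compared. In limma these 0 counts stood beside 2841, 1393 and 2606 genes at an unadjusted p under 0.05. The count of 12 for the interaction became 1 without the filter, 2 with a pseudocount of 0.1, 155 with median-of-ratios scaling, 639 with array weights and 0 with the airway score, where limma left 1808 genes at an unadjusted p under 0.05. Leaving out 1 library gave 0 to 1029 and 0 to 999. Without both MI+CIH 3 and sham 2, chosen after seeing the data, they were 10 and 0 (2292 at an unadjusted p under 0.05).

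With the replicate number as a block the counts were 14 and 0 (limma, 3129 at an unadjusted p under 0.05). The numbers do not pair the libraries, so this is given as a count only. Of 376 list medians (47 lists, each without 1 of the 6 MI+CIH and MI libraries, with median-of-ratios scaling or with the airway score), 42 moved beyond the spread between replicates, 26 of them with the airway score, which was applied to the lists after seeing the data. With it 19 of the 47 medians changed sign. The cause of these changes was not tested. Genes near 0 in MI rest on few reads there, so the size of their rise is poorly bounded.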
